A study of Drosophila melanogaster with 4 samples.

Results

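Long stretches of the fly genome that hold no H3K27ac cluster of either replicate list from adult heads are described here. A stretch is a gap of 50 kb or more between neighbouring H3K27ac clusters on the 5 major chromosome arms, after the clusters of both chromatin immunoprecipitation (ChIP) replicates were merged. Merging gave 5994 clusters with 5989 gaps between them, of which 417 gaps (6.96%) were long enough. The stretches were chosen by the positions of the deposited clusters, so their number, lengths and positions are descriptions of these lists, and no test was made on them. A further deposited list, for the replicate set, had clusters wholly inside 160 of the stretches (38.4%).

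H3K27ac is acetylation of lysine 27 on histone H3. It marks active promoters and enhancers, and the same lysine can instead carry methyl groups placed by Polycomb proteins, which keep developmental genes such as the Hox genes silent. Chromatin near centromeres is packed into heterochromatin, which is poor in genes and rich in repeats.

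The data came from head nuclei of Oregon-R flies, a wild-type laboratory strain, labelled as mixed adults, with no transgene or treatment named in the labels. There were 2 ChIP libraries made with an antibody from Active Motif and 2 input libraries, and each input was paired with the ChIP library of the same number. Heads were separated from whole flies with sieves, so all cell types of the head were pooled, and no sex is named in the labels. A stretch without clusters may thus still carry the mark in a minority of cells, and few marked cells cannot be told apart from weak marking in many. The labels do not say that the replicates were separate batches of flies, so the spread between them may be technical. Replicate 1 held 5769 clusters on the major arms and replicate 2 held 5919, covering 22.8% and 23.2% of the sequence. Read depth is unknown. The head origin was not checked against marker genes, because gene positions on release 5 of the genome were not used here, and for the same reason no gene is assigned to a stretch by position and no sequence is printed.

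The 417 stretches held 40.9 Mb, which is 34.4% of the major arms and 46.0% of all bases that lay between merged clusters. Merged clusters themselves covered 25.1%. The median stretch was 85.0 kb long, with quartiles of 61.5 and 115 kb and a maximum of 461 kb, against a median of 4.44 kb for the gaps that were too short. Most were of moderate length: 268 measured under 100 kb, 132 measured 100 to 200 kb, and 17 reached 200 kb. Those 17 made up 4.79 Mb. The limit of 50 kb did not fall at a break in the lengths. The 3 shortest stretches, all on 3L, measured 50563, 50777 and 51061 bp, and the 3 longest gaps below the limit measured 49926, 49957 and 49961 bp.

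Every major arm had long stretches, and 2R had the fewest. The X had 78, 2L had 84, 2R had 62, 3L had 91 and 3R had 102. They took up 35.1% of the X, 38.2% of 2L, 27.6% of 2R, 37.3% of 3L and 33.3% of 3R. When stretches were instead taken from 1 replicate list at a time, the X had 36.8% ± 0.0426, 2L had 41.3% ± 1.93, 2R had 30.2% ± 1.45, 3L had 40.0% ± 1.86 and 3R had 35.7% ± 0.559 (SD, n = 2 replicates). The gap between 2R and each other arm exceeded these spreads, whereas 2L and 3L differed by less than theirs. Median lengths were close, from 79.3 kb for 3R and 85.0 kb for 3L to 86.7 kb for the X, 87.3 kb for 2L and 87.4 kb for 2R.

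**Figure D1:**
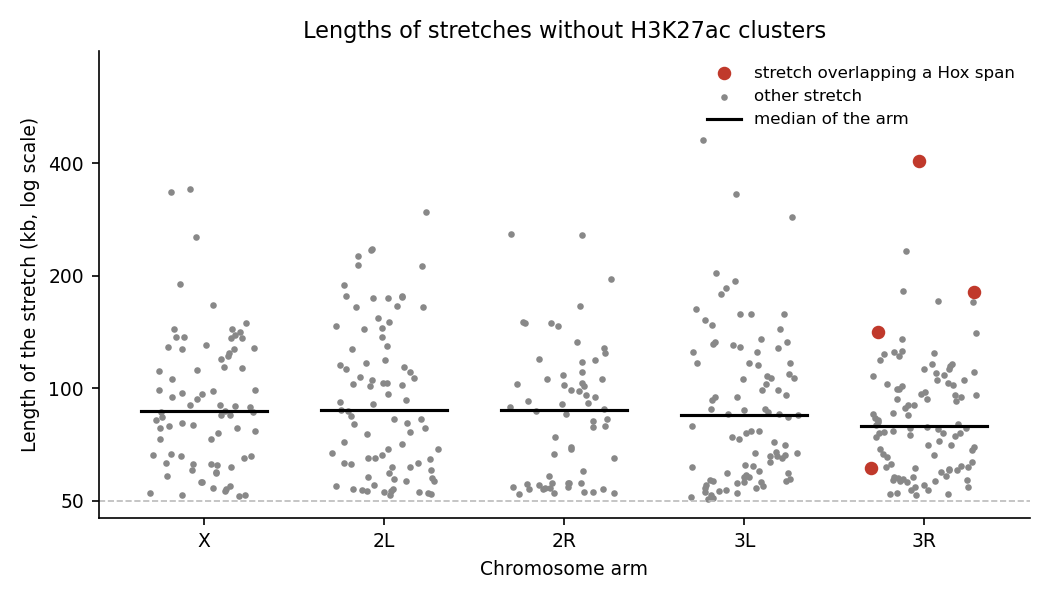
Length of each of the 417 stretches in kb (log scale) by chromosome arm, with a black bar at the median of the arm and a dashed line at the 50 kb limit. Red points overlap the Hox spans on 3R, and 1 of them, at 405 kb, is the longest stretch of that arm.

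On 4 of the 5 arms, stretches took up a larger share of the sequence near the centromere end than of the rest. Over all arms, 51.9% of the sequence within 3 Mb of the centromere end lay in stretches, against 31.8% of the rest. Taken from each replicate alone, the shares were 54.8% and 53.0% near the centromere end, against 35.2% and 33.7% elsewhere, so the difference was larger than the spread between replicates. By arm, the share near the centromere end was 65.4% on the X against 30.4% elsewhere, 52.3% against 36.1% on 2L, 43.1% against 25.0% on 2R, and 64.7% against 33.5% on 3L. 3R was the exception, with 34.2% near its centromere end and 33.1% elsewhere. Without 3R, the pooled shares were 56.4% and 31.4%. Over all 5 arms, the part within 3 Mb of the centromere end held 19.0% of the length of all stretches. How much of that part reads could be mapped to was not measured.

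The decline was steep and short. Over the 5 arms together, 64.5% of the first Mb from the centromere end lay in stretches, then 48.4% of the sequence at 1 to 2 Mb and 42.9% of that at 2 to 3 Mb. Farther out, the share lay between 29.8% and 34.2% in every distance class. The first Mb reached 87.0% on 3L, 84.2% on the X, 75.3% on 2L and 61.6% on 2R. On 3R the first Mb held 14.7% and the next 13.1%, below every other arm in the same classes, and the third Mb held 74.9%. The third Mb of 3R contains the stretch over the Antennapedia complex described below. The 59 stretches within 3 Mb of the centromere end had a median length of 89.8 kb, against 83.5 kb for the 358 farther out. Over the arms together, the median was 112 kb for the 21 stretches of the first Mb and 99.1 kb for the 21 at 1 to 2 Mb. It was 85.0 kb for the 17 at 2 to 3 Mb and lay between 79.7 and 86.0 kb in the classes beyond. By arm, the first Mb had a median of 331 kb on 3L (3 stretches) and 224 kb on the X (4). There it was 82.6 kb on 2L (7), 73.4 kb on 3R (2) and 54.4 kb on 2R (5). Length and distance from the centromere end had a Spearman's rho of -0.07 across all 417 stretches.

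**Figure D2:**
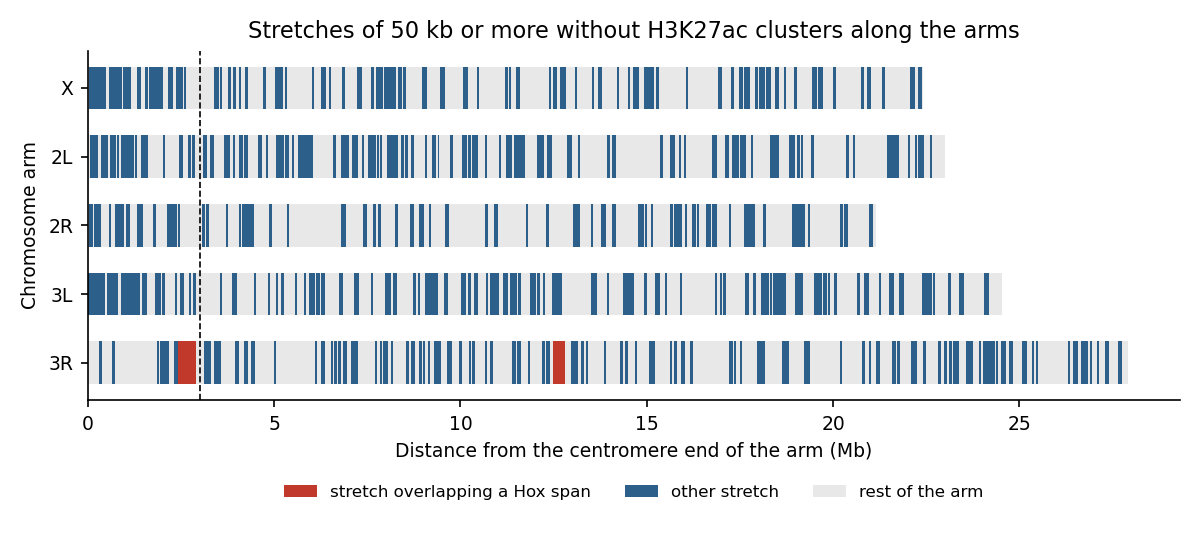
Each of the 5 major arms drawn from its centromere end (0 Mb, left) with the 417 stretches as bars to scale; red bars overlap the Hox spans and the dashed line marks 3 Mb. Stretches fill a larger share of the left end than of the rest on the X, 2L, 2R and 3L, while 3R starts with almost 2 Mb that hold few of them.

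**Figure D3:**
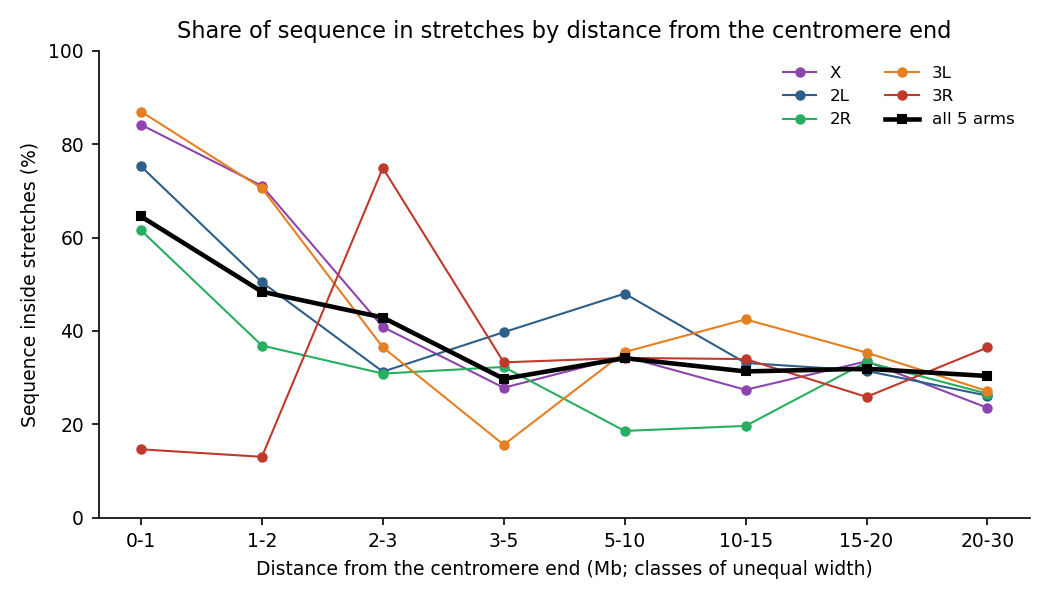
Percentage of sequence inside stretches by distance class from the centromere end, for each arm (thin lines) and all 5 arms together (thick black line). The joint share is 64.5% in the first Mb and levels off near 30% beyond 3 Mb, and 3R alone peaks at 2 to 3 Mb, at 74.9%.

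Long stretches were nevertheless spread over the whole of every arm. All 117 full windows of 1 Mb held stretch sequence, with a median of 32.1%, and 21 windows were at or above 50%. Most of the 117 windows lay beyond 3 Mb from the centromere end, and so did 13 of those 21. The share of windows at or above 50% was still higher within 3 Mb. Among the 13 was the window at 5 to 6 Mb on 2L, where 73.3% of the sequence was in stretches. The lowest window lay at the same distance on 3R and held 4.64%. The longest part of any arm between neighbouring stretches was 1.40 Mb, on 2R from 5390494 to 6786214, and merged clusters covered 41.9% of it. The next lay on 2L (1.19 Mb) and 3R (1.12 Mb), the one on 3R from 731021 to 1853157, inside the centromere end of 3R.

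In males of this species the single X is transcribed at a raised rate, so the X was set against the autosomes. The X had 35.1% of its sequence in stretches and the 4 autosome arms had 34.2%. The sign of this difference changed with the replicate: the X lay 1.20 percentage points lower in replicate 1 (36.7% against 37.9%) and 0.853 points higher in replicate 2 (36.8% against 35.9%). The whole-arm shares thus did not differ beyond the spread between replicates. Within 3 Mb of the centromere end, the X had the higher share in both replicates, at 66.0% against 52.0% and 66.5% against 49.6%. This held against the autosome arms pooled and not against each of them: 3L had 72.5% and 66.4% there, while 3R had 36.0% and 34.8%. Beyond 3 Mb the X had the lower share in both, at 32.2% against 35.9% and 32.2% against 34.0%, although 2R was lower than the X, at 29.1% and 26.9%. These parts of the comparison were chosen after the whole-arm values were seen.

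Of the 10 longest stretches, 6 had both border clusters in both replicates and the other 4 had 1 border in a single replicate. On 3L from 24068924 to 24529450 lay the longest, of 461 kb, which ended 14.1 kb short of the centromere end. It was 461 kb long in each replicate alone. Its flanking clusters scored above the median of their lists, at 1.06 and 1.31 on the left and 1.43 and 1.56 on the right, in replicates 1 and 2. The lists' median scores were 0.851 and 0.814.

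The longest on the X, from 21502117 to 21844346, measured 343 kb in replicate 1 and 342 kb in replicate 2. No cluster of any of the 3 lists reached into it. A second X stretch of 336 kb, from 22060467 to 22396501, was bordered on the left by a cluster of replicate 2 alone, with a score of 0.564. Both X stretches lay within 1 Mb of the centromere end. On 2L the longest stretch, from 21832232 to 22128695, measured 297 kb in replicate 2, and in replicate 1 it ran on to 369 kb because a cluster of 2179 bp (score 0.546) was present in replicate 2 alone. On 3L the stretch from 23333803 to 23664706 measured 331 kb in replicate 2 and 374 kb in replicate 1, again for want of 1 cluster, which scored 1.24 in replicate 2. The stretch on 3L from 23732679 to 24020779 measured 288 kb in both.

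On 2R the longest stretch, from 718496 to 976686, was 258 kb long in both replicates. Its right-hand neighbour scored 1.88 and 1.83, the highest score among the borders of the 10 longest stretches. Another 2R stretch, from 2130773 to 2387149, measured 257 kb in replicate 1 and 256 kb in replicate 2. Of these 10, 9 lay within 3 Mb of the centromere end. The remaining one was on the X from 14219733 to 14473921, 7.95 Mb from the centromere end, with 255 kb in replicate 1 and 256 kb in replicate 2. The other 4 of the 5 longest stretches beyond 5 Mb were all on 2L. They measured 236 kb (from 17140154), 234 kb (from 11281447), 226 kb (from 14744208) and 214 kb (from 15275749). The stretch from 14744208 had its left border (1347 bp, score 0.422) in replicate 1 alone, and replicate 2 ran free there for 281 kb.

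Stretches tended to follow one another. The gap next along the arm was itself a stretch for 55 of 415 stretches (13.3%), against 361 of 5569 shorter gaps (6.48%). Allowing up to 20 kb between neighbours, 166 stretches (39.8%) had another stretch beside them, in 74 groups, while 251 stood alone. Of these groups, 59 were pairs, 13 were triplets and 2 were larger. Near the centromere end 36 of 59 stretches (61.0%) were grouped, against 130 of 358 (36.3%) farther out. Stretches also held more of the sequence there, at 51.9% against 31.8%. No share within 20 kb was taken for the shorter gaps, so these grouped shares have no background beside them.

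The group with the most members lay on the X from 20396991 to 20898035, 1.52 Mb from the centromere end, with 5 stretches of 59.2 to 129 kb that filled 478 kb of 501 kb. Another on 2R from 4069801 to 4454645 had 4 stretches in 385 kb. By summed length the leading group was on 3R from 2305206 to 2891324, where 3 stretches filled 578 kb of 586 kb and ended with the Antennapedia complex. The next by summed length, on 3L from 23144426 to 23664706, filled 513 kb of 520 kb.

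Between grouped stretches stood small islands of acetylation. A merged cluster had a stretch on both sides in 55 cases. These islands had a median width of 2581 bp in replicate 1 and 2734 bp in replicate 2, against 3155.5 and 3118 bp for clusters that bordered no stretch. Their median scores were 0.674 and 0.695, against 0.861 and 0.824. Against 83.2% of merged clusters that bordered no stretch, 41 of the 55 islands (74.5%) were present in both replicate lists. Of the other islands, 4 were in replicate 1 alone and 10 in replicate 2 alone. The widest, on 3R from 24149384 to 24167592, was 18209 bp wide in replicate 1, with a score of 1.75, and 17149 bp wide in replicate 2, with a score of 1.57. The next widest, on 2L from 12815076, measured 8146 and 8329 bp.

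The clusters that bordered stretches were somewhat narrower and lower in score than other clusters of the same list. The stretches have 779 merged clusters at their edges. Median widths in replicate 1 were 2636 bp for 709 border clusters and 3155.5 bp for 5060 others, and in replicate 2 they were 2703 bp for 743 border clusters and 3118 bp for 5176 others. Median scores were 0.779 against 0.861 in replicate 1 and 0.754 against 0.824 in replicate 2. The difference in score was -0.076 ± 0.0086 and that in width was -467 ± 73.9 bp (border minus other, mean ± SD, n = 2 replicates), so both differences had the same sign and a similar size in each replicate. They were small beside the range within a list: the middle 50% of scores ran from 0.592 to 1.08 for border clusters of replicate 1 and from 0.633 to 1.19 for the others.

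**Figure D4:**
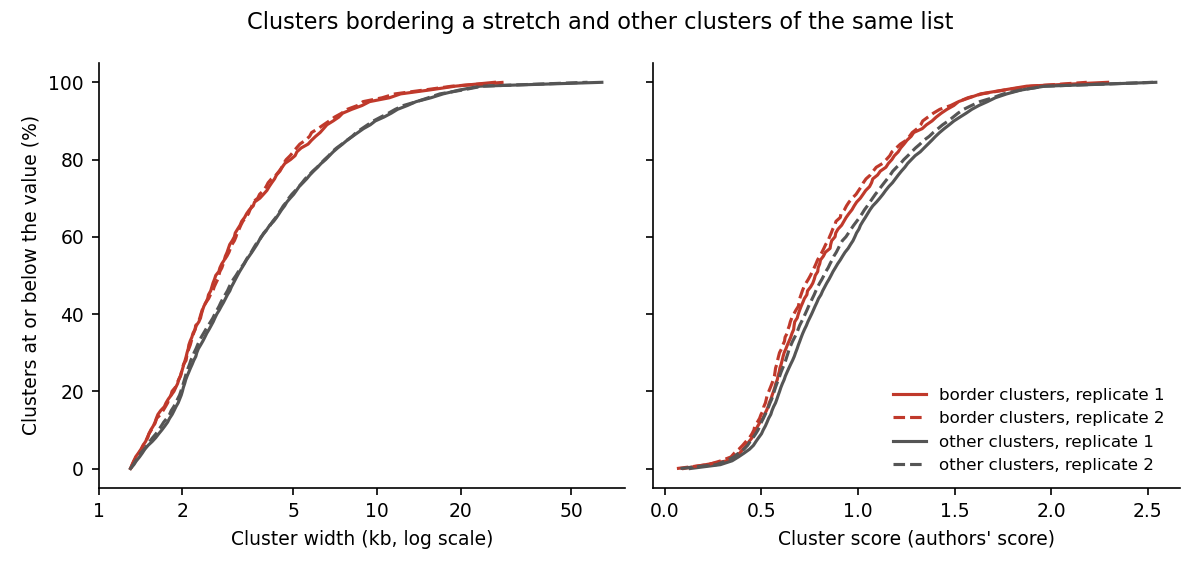
Cumulative share of clusters by width in kb (log scale, left) and by the authors' score (right), for clusters that border a stretch (red) and other clusters (grey) of replicate 1 (solid) and replicate 2 (dashed). The red lines lie left of the grey ones in both replicates, with medians of 2636 and 2703 bp for borders, against 3155.5 and 3118 bp for the others.

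Broad domains were scarce at the edges of stretches. Clusters of 10 kb or more made up 4.65% of border clusters in replicate 1, against 9.78% of the others, and 4.31% against 9.49% in replicate 2. Of the border clusters, 30.7% and 30.3% were among the lowest-scoring 25% of their list, against 24.3% and 24.2% of the others. High borders did occur. The highest border score of each list was on 2R from 16882716 to 16890226, with 2.29 in replicate 1 and 2.18 in replicate 2. Others were a 17.9 kb cluster on 3L from 9044003 (1.93 and 2.02) and 1 on the X from 4802305 (2.09 and 1.87).

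The border difference is given by arm without a test, and its SD between replicates leaves out the spread among clusters of an arm. In score it was -0.114 ± 0.0086 for the X, -0.043 ± 0.017 for 2L, -0.041 ± 0.011 for 2R, -0.122 ± 0.037 for 3L and -0.071 ± 0.0085 for 3R (border minus other, mean ± SD, n = 2). In width it was -698 ± 24.4 bp for the X, -407 ± 29.3 bp for 2L, -164 ± 110 bp for 2R, -597 ± 152 bp for 3L and -412 ± 107 bp for 3R. Near the centromere end the difference in score was -0.083 in replicate 1 and -0.019 in replicate 2, so its size was not stable there. Among clusters whose merged cluster was found in both lists, border clusters still scored lower, at 0.814 against 0.906 in replicate 1 and 0.812 against 0.867 in replicate 2. The score of the left border said little about that of the right, with Spearman's rho of 0.06 across the 417 stretches and 0.10 across 5572 shorter gaps. Length was nearly unrelated to the mean score of the borders, with rho of -0.02 across 411 stretches in replicate 1 and 414 in replicate 2. These relations are across regions of the same libraries and are given without a test.

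Both replicates placed edges at close positions where both lists held the border cluster, but many stretches differed in length. For the 657 edges held by both lists, the facing edges lay a median of 112 bp apart, and 567 edges (86.3%) lay within 500 bp. Of all 417 stretches, 176 (42.2%) were within 500 bp of their merged length in each replicate alone. The free length was over 10 kb longer in 62 stretches in replicate 1 and in 28 in replicate 2. Of the 779 merged border clusters, 616 (79.1%) were in both lists, against 4340 of 5215 other merged clusters (83.2%). In 254 stretches (60.9%) both borders were found in both lists. In the other 163 stretches (39.1%) at least 1 border came from a single list. These border clusters of 1 list were narrow and low, with a median width of 1596.5 bp and a score of 0.548 in replicate 1, and 1654 bp and 0.546 in replicate 2. The replicate-set list, which the authors made from the same libraries, overlapped 157 of the 163 merged border clusters found in 1 list (96.3%). One cluster could move a stretch a long way: on 2L the gap from 21759209 to 21830052, of 70.8 kb, ran for 369 kb in replicate 1, and the gap from 14690031 to 14742860, of 52.8 kb, ran for 281 kb in replicate 2.

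A check that the selection did not use came from choosing stretches in 1 replicate list and measuring the other. Replicate 1 alone gave 446 stretches over 44.9 Mb, of which clusters of replicate 2 covered 0.942%, against 23.2% of the major arms as a whole and 5.02% of the shorter gaps of replicate 1. Replicate 2 alone gave 433 stretches over 43.0 Mb, of which clusters of replicate 1 covered 0.593%, against 22.8% of the arms and 4.38% of its shorter gaps. No cluster of the other list lay wholly inside 320 of 446 (71.7%) and 351 of 433 (81.1%) of them. Those that did, 166 clusters of replicate 2 and 95 of replicate 1, had median widths of 1609 and 1618 bp, against 3041 and 3083 bp for their lists, and median scores of 0.546 and 0.559, against 0.814 and 0.851. None of them reached 10 kb. Gaps without an inner cluster were not counted among the shorter gaps, so the 71.7% and 81.1% have no background beside them. The share of the whole arms includes sequence under clusters of the choosing replicate, and the shorter gaps have more edge per base. Neither is thus matched to the stretches for length.

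The replicate-set list put few clusters into the stretches. It covered 1.16% of their bases, against 6.70% of the shorter gaps and 28.0% of the major arms. Here too neither share was matched for length. Of 6782 clusters of that list on the major arms, 242 (3.57%) lay wholly inside a stretch, and 257 stretches (61.6%) had none. With stretches drawn only from clusters found in both replicates, 37.0% had none. No such share was taken for the shorter gaps, so both shares have no background beside them. A cluster of the list overlapped only the edges in 238 of the 257 stretches, and 19 stretches (4.56%) had no overlap at all. The inner clusters had a median width of 1293.5 bp and a median score of 0.393, against 3023 bp and 0.622 for the list, and none reached 10 kb. They were thinnest in the longest stretches, with 2.72 per Mb at 200 kb and over, 5.36 at 100 to 200 kb and 7.24 below 100 kb. Near the centromere end there were 3.34 per Mb, against 6.52 per Mb in the stretches farther out. This list was made from the same libraries and is no independent sample.

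The spans of both Hox complexes lay almost wholly inside stretches. Hox genes encode homeodomain transcription factors that give segments along the body their identity. In flies they form the Antennapedia complex (ANT-C), with lab, pb, Dfd, Scr and Antp for the head and front thorax, and the bithorax complex (BX-C), with Ubx, abd-A and Abd-B for the hind thorax and abdomen. The spans examined were 3R from 2.48 to 2.89 Mb for ANT-C and from 12.48 to 12.81 Mb for BX-C. Of these spans 98.9% and 97.7% were in stretches, 98.3% together, against 31.5% of the rest of 3R. Clusters covered 1.44% and 1.49% of the spans in replicates 1 and 2, against 23.1% of the rest of 3R in each. The spans were named with the clusters known and are given to 10 kb, so this overlap is a description.

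At ANT-C a single stretch of 405 kb, from 2486514 to 2891324, took up nearly the whole span. It was the second longest of all 417 stretches, and it was 405 kb long in each replicate. On its left were 2 clusters at 1.9 to 6.5 kb from the start of the span, with scores of 0.734 and 0.329 in replicate 1 and 0.693 and 0.419 in replicate 2. Beyond them a further stretch of 61.2 kb, from 2420728 to 2481936, reached just into the span. On the right the border cluster of 2435 bp scored 0.858 in replicate 1 and 0.854 in replicate 2. Scores were higher beyond it, with a cluster from 2899546 that scored 1.80 and 1.70 and another from 2910535, of 11015 bp in replicate 1, that scored 1.87 and 1.95. The replicate-set list alone held a cluster inside the stretch, of 1170 bp with a score of 0.319.

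At BX-C there were 2 stretches, of 141 kb from 12482172 to 12623494 and of 181 kb from 12625447 to 12806382. They were 141 and 181 kb long in each replicate. Only 1 small cluster parted them, and it was present in both replicates: 1889 bp with a score of 0.098 in replicate 1, and 1952 bp with a score of 0.310 in replicate 2. In replicate 1 this was the second lowest of the 5898 scores, and in replicate 2 it ranked 111th from the bottom of 6056. The 2 stretches together filled 322 kb of 324 kb. The outer borders ended within 2.2 kb of the start of the span and began 327 kb from it in replicate 1 and 326 kb in replicate 2, with scores of 0.570 and 0.743 on the left and 0.610 and 0.635 on the right. A cluster of 4750 bp in replicate 1, from 12809671, followed on the right, with a score of 1.34 in both replicates.

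**Figure D5:**
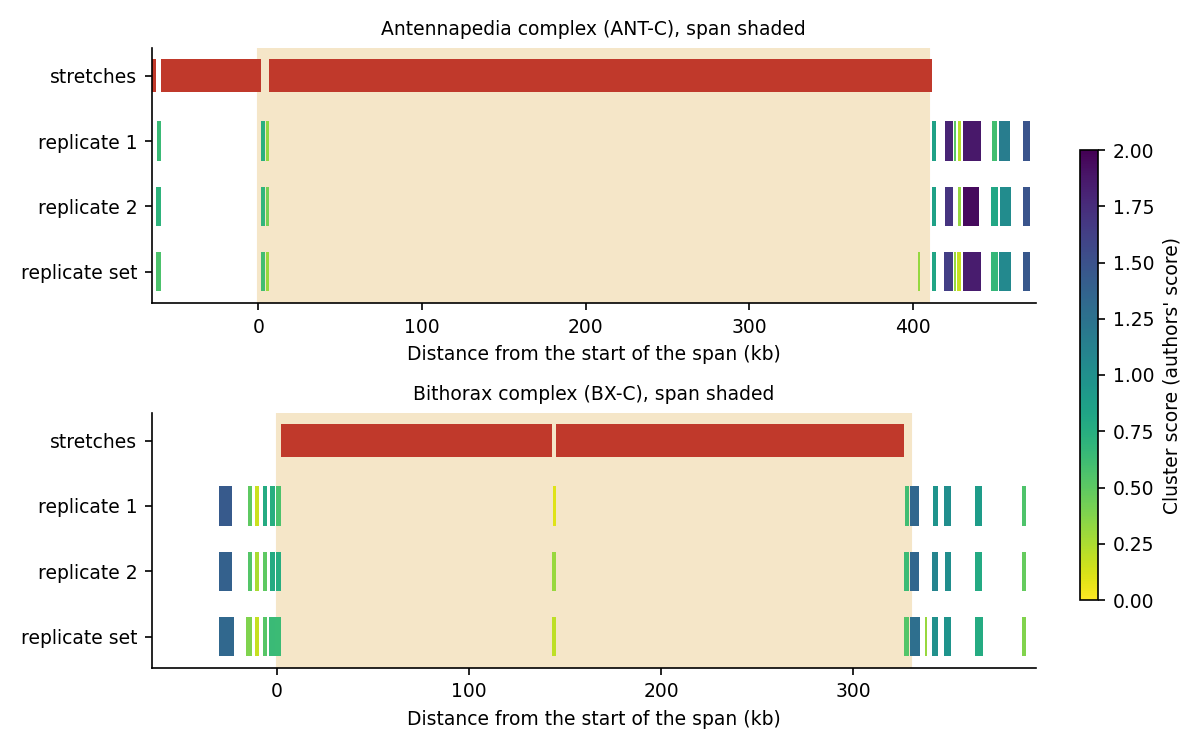
Clusters of replicate 1, replicate 2 and the replicate set around the ANT-C and BX-C spans on 3R (shaded), coloured by score, with the stretches as red bars; the horizontal axis is the distance from the start of the span in kb. Within the spans the lists hold only clusters near the edges, 1 weak cluster about 144 kb into BX-C and 1 weak replicate-set cluster near the right edge of ANT-C.

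In the release 6 gene table all 8 Hox genes were found on 3R, and 20 protein-coding genes ran from lab to Antp and 6 from Ubx to Abd-B. Besides the Hox genes, the run from lab to Antp includes bcd, zen and ftz, which encode homeodomain proteins of the early embryo, and a row of cuticle protein genes of the Ccp84A family. Positions on release 6 were not carried over to release 5, so which of these genes lie under the few clusters at the edges was not determined.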

How the data were processed

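H3K27ac ChIP-seq of fly head nuclei was used as deposited, as 1 list of enrichment clusters for each of 2 ChIP replicates and 1 list for the replicate set. Per the submitters' processing notes, reads were mapped with Bowtie 0.12.7. Positions are on FlyBase release 5, per the file headers. The authors deposited a score for each cluster. Its formula, the cluster caller and the thresholds were not given in the sources used here. The relation of left to right border scores drew on both lists. Scores were otherwise compared only within a list or as differences within a list. The inputs were used only as far as they entered the deposited calls.

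Clusters of both replicate lists marked as enriched were merged where they overlapped or touched, on 2L, 2R, 3L, 3R and X, using arm lengths from the headers, and gaps of 50000 bp or more were kept. The sequence outside the outermost clusters was not counted. Border clusters are those of each list within the merged clusters on either side. A stretch counted as grouped when at most 20000 bp lay between it and the next. Distances run from the centromere end, which is the high-coordinate end of 2L, 3L and X and the low-coordinate end of 2R and 3R. A replicate-set cluster counted as inside when it touched neither edge of the stretch. Values with ± are means over both replicates.

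Named stretches are the 10 longest, the longest of each arm, those on Hox spans, the 5 longest over 5 Mb from the centromere end, the group with the most members, and the 3 on each side of the length limit; other regions were chosen after their values were seen. The stretches, Hox spans and measures were chosen with earlier results of these data known. Alternatives were other length limits, stricter cluster sets, single replicates, and other limits for nearness and grouping. The code that finds stretches and overlaps was run on simulated cluster lists, in which every planted stretch was recovered. Planted stretches lay clear of the length limit and every cluster was in both lists. This run thus checked the code and not how reliable the deposited stretches are. The software was Python 3.11.15 with pandas 2.3.3, numpy 2.4.6 and scipy 1.17.1, and figures were drawn with matplotlib 3.10.9.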

Additional observations from a re-analysis of the deposited data

How the results depend on the processing

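With 30 kb and 100 kb as the minimum length there were 786 and 149 stretches in place of 417, over 55.2 and 22.1 Mb in place of 40.9 Mb. The share of their length within 3 Mb of the centromere end was 17.0% and 24.1% in place of 19.0%, and it was 13.8% within 2 Mb. The share beside another stretch was 56.5% and 20.1% in place of 39.8%, and 32.1% with at most 10 kb between neighbours. For borders minus other clusters, these limits gave -0.0653 and -0.104 in score in place of -0.0757, and -377 and -532 bp in width in place of -467 bp. With 100 kb, 57.7% had no inner replicate-set cluster in place of 61.6%, and 98.1% of the Hox spans lay in stretches in place of 98.3%. Coverage by the other replicate was 1.02% and 0.513% in place of 0.767%.

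Only clusters found in both replicates gave 47.1 Mb, 17.9% near the centromere end, 41.6% grouped and 37.0% with no inner replicate-set cluster. Dropping the lowest 10% of scores gave 43.6 Mb, 18.6% near the centromere end, -0.0612 in score, -508 bp in width, 46.4% with no inner cluster and 98.9% of the Hox spans. Merging in the replicate-set list gave 35.4 Mb, 20.2%, 34.5% grouped, -0.0676 in score, -426 bp in width and 97.4% of the Hox spans. The number of stretches was 374 to 462 under these 3 settings.

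The X minus the autosome arms (0.852 points) was -1.96 without the lowest scores and -1.79 beyond 3 Mb of the centromere end, which was added after the data were seen. It was -0.838 with clusters found in both replicates, and between -0.394 and -0.283 with other length limits and with the replicate-set list.

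With either replicate left out, the number was 433 to 446, the length 43.0 to 44.9 Mb, the share near the centromere end 18.3% to 18.5%, the grouped share 40.4% to 41.0%, the score difference -0.0774 to -0.0692, the width difference -444 to -405 bp, the share with no inner cluster 47.8% to 51.0%, the X difference -1.20 to 0.853 points and the Hox share 98.4%. Fewer clusters leave more and longer gaps. The score and width differences stayed below 0 under all settings run. No paired analysis was possible because no groups were tested against each other, and inputs with the numbers of the ChIP replicates had no values of their own here. Read depth is unknown, and how much of the stretches reads could be mapped to was not measured.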

Other observations

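Sequence outside the outermost merged clusters was no stretch by the rule, but 2 such ends were as long as one. The telomere end of 2R was free of clusters for 67365 bp and that of 3L for 50994 bp. The centromere ends were free for 42096 bp on 2L, 17300 bp on 2R, 11463 bp on 3L and 6199 bp on the X, and on 3R a cluster began at the first base.

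Of the 242 replicate-set clusters inside stretches, 2 scored above 1, both of 1001 bp and both absent from either replicate list. One lay on the X from 4683542 to 4684542 with a score of 2.88, inside a stretch of 86.6 kb, and the other, scoring 2.51, on 3R from 7205026 to 7206026, inside a stretch of 182 kb. On the major arms that list had 32 clusters with a score above 2 and 34 of at most 1001 bp, and these 2 alone were in both sets. The 3R stretch, from 7072559 to 7255028, held 8 replicate-set clusters, more than any other stretch, although neither replicate list had one there.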
